A study of Homo sapiens with 12 samples.

Results

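The 6 leucine (Leu) codons were followed through monosome and disome profiling of human embryonic kidney cells with and without THUMPD1, grouped by the tRNA that decodes them. They are all the codons that the deposited tables assign to Leu, out of 61 sense codons, and were examined in all 12 libraries. The cells are labelled HEK293 and are called HEK-293T in the study's methods. They were either wild type (WT) or carried a CRISPR-Cas9 knockout of THUMPD1 (KO) that was taken through single-cell sorting, and the labels do not give the number of clones. No drug treatment or time point separated the genotypes. There were 4 WT and 4 KO monosome libraries, and 2 WT and 2 KO disome libraries. The study's legends call the replicates biological. The labels do not say whether they came from separate cultures, and all p-values refer to these libraries. Those from limma, with their standard errors and intervals, draw each codon's or ratio's spread between libraries towards that of the others in its fit. The tables hold codons and no genes, so neither the loss of THUMPD1 nor the identity of the cells could be checked from them.

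A ribosome protects a short stretch of mRNA from nuclease, and the codon in its A site is the one for which it awaits a matching tRNA. The longer time ribosomes spend with a codon in the A site, the larger the share of footprints found there. A disome footprint comes from a pair of stacked ribosomes, and is read at the A site of the leading one. THUMPD1 is the adapter with which the acetyltransferase NAT10 places N4-acetylcytidine in the D arm of the tRNAs for Leu and serine (Ser). All Leu isoacceptors belong to these tRNAs, which, like those for Ser, carry a long variable arm. The value used here is the relative occupancy, a linear ratio that averages close to 1 over the codons of a library and that the study places at the A site. It ranks codons within a library and gives no amount of translation.

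Leu has a box of 2 codons that begin with UU and a box of 4 codons that begin with CU, and the third base then selects the anticodon. The codons are shown because all comparisons below are between them, with the third base in capitals and each anticodon written from its first base, the one that meets the third base of the codon.
Leu codon of the 2-codon box ending in A, read by the isoacceptor with anticodon UAA: uuA
Leu codon of the 2-codon box ending in G, read by anticodon CAA and through wobble by UAA: uuG
Leu codon of the 4-codon box ending in U, read by anticodon AAG after its first A is converted to inosine: cuU
Leu codon of the 4-codon box ending in C, read by the same inosine-bearing isoacceptor: cuC
Leu codon of the 4-codon box ending in A, read by anticodon UAG and, through inosine, by AAG: cuA
Leu codon of the 4-codon box ending in G, read by anticodon CAG and through wobble by UAG: cuG
These decoding rules are background and were not measured. In the RefSeq gene table for GRCh38.p14, 32 tRNA genes for Leu were named, besides 3 pseudogenes. The anticodons AAG and CAG had 9 genes each, CAA had 7, UAA had 4 and UAG had 3, and a number of genes does not give the amount of a tRNA.

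In WT monosomes, CUA had the highest mean occupancy of the Leu codons, at 1.14 ± 0.102 (SD, n = 4), and led them in 4 of 4 libraries. It was followed by UUG at 1.02 ± 0.0587, CUG at 0.983 ± 0.0984 and CUC at 0.920 ± 0.0131. UUA, at 0.891 ± 0.0434, and CUU, at 0.866 ± 0.0346, had the lowest means. Every neighbouring pair in this order overlapped in range. Among all 61 codons, CUA ranked between 8 and 17 in the WT libraries and UUG between 15 and 22, whereas CUU ranked between 31 and 56. Thus CUA and UUG, which belong to different boxes and end in different bases, had the highest means of the Leu codons in WT.

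In KO monosomes CUA and UUG again led the Leu codons. CUA had a mean of 1.50 ± 0.124 and ranked 2 of 61 in each of the 4 KO libraries. UUG had a mean of 1.41 ± 0.114 and ranked between 4 and 6. The next Leu codon was CUC at 1.10 ± 0.0604, whose highest library lay below the lowest KO library of UUG. CUG at 1.09 ± 0.0968 and CUU at 1.09 ± 0.0405 overlapped with CUC. UUA had the lowest mean, at 1.00 ± 0.0884, with ranks between 17 and 34, and overlapped with CUU. It was last of the Leu codons in KO replicates 1 and 2, while CUG was last in KO replicates 3 and 4. In KO, CUA and UUG were therefore separated from the other 4 Leu codons, and the codon with the lowest mean was UUA in place of CUU.

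**Figure D1:**
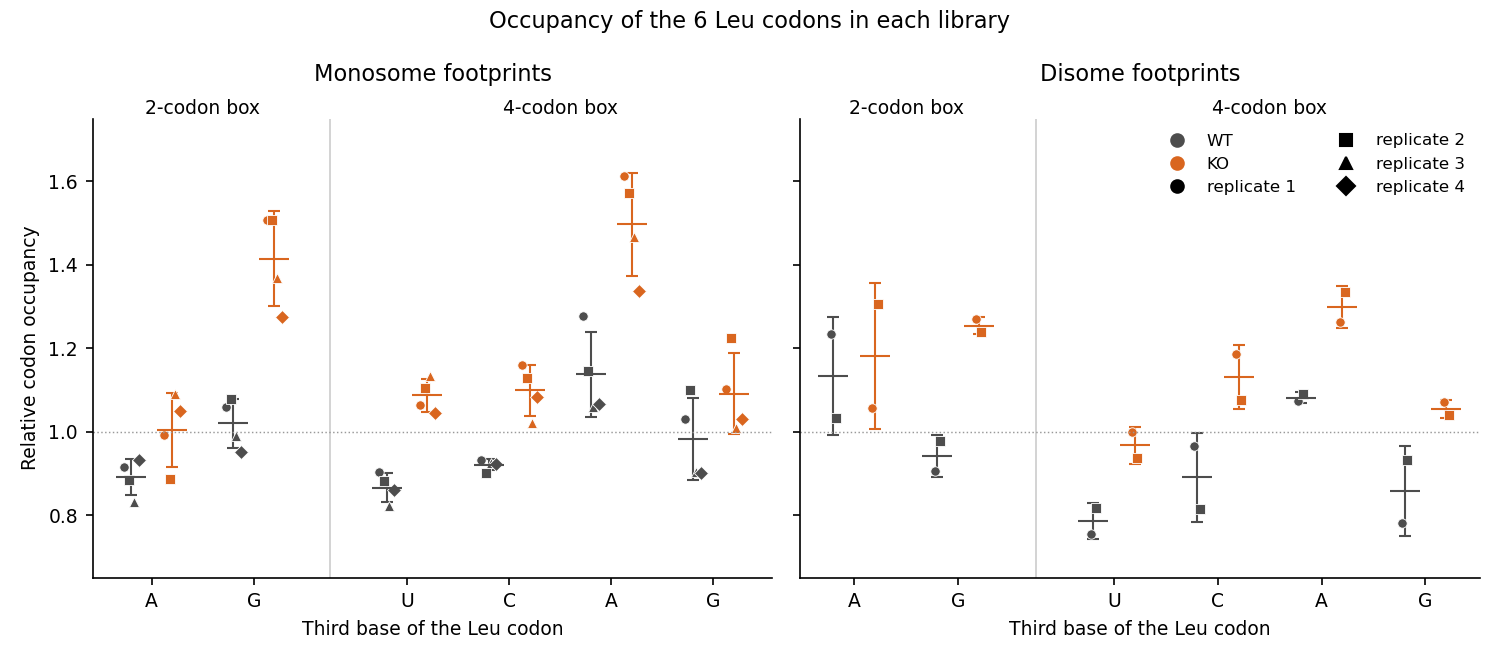
Relative occupancy of each Leu codon in every library, in WT and KO, for monosomes and disomes, with points for libraries and horizontal bars and whiskers for the group mean and SD (4 libraries a group in monosomes, 2 in disomes). In monosomes the KO points of UUG, CUA, CUU and CUC lie above all WT points, while those of UUA and CUG overlap with WT.

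Comparing the genotypes in monosomes shows which Leu codons passed the test for a change in occupancy without THUMPD1. UUG, CUA, CUU and CUC had higher occupancy in KO, by 1.39, 1.32, 1.25 and 1.19 fold. UUA and CUG, which end in A and in G and lie in different boxes, did not pass the test. Their means were also higher in KO, by 1.13 and 1.11 fold, so the lack of a call does not show that they stayed unchanged. Thus 4 of the 6 Leu codons passed, 1 in the 2-codon box and 3 in the 4-codon box, beside 6.56% of all 61 codons, and those 4 made up all the calls in the table. The changes below are log2(KO/WT) with the standard error of the fit, and adjusted p-values are from limma over the 61 codons.

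In the 2-codon box, UUG was 1.06, 1.08, 0.991 and 0.952 in WT replicates 1 to 4, and 1.51, 1.51, 1.37 and 1.27 in KO replicates 1 to 4. All KO libraries lay above all WT libraries. The change was 0.47 (SE 0.07, limma adjusted p = 0.00244). UUA, decoded by the UAA isoacceptor, was 0.916, 0.885, 0.833 and 0.931 in WT and 0.992, 0.887, 1.09 and 1.05 in KO. KO replicate 2 lay among the WT values, and the other KO libraries lay above them. The change of UUA was 0.17 (SE 0.07, 95% interval 0.01 to 0.33, limma adjusted p = 0.305).

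In the 4-codon box, CUA was 1.28, 1.15, 1.06 and 1.07 in WT and 1.61, 1.57, 1.47 and 1.34 in KO, without overlap. Its change was 0.40 (SE 0.08, limma adjusted p = 0.00979), and without WT replicate 4 it was 0.37 with limma adjusted p = 0.0504. The CUU and CUC codons, which share the inosine-bearing isoacceptor, both rose. CUU was 0.902, 0.881, 0.821 and 0.860 in WT and 1.06, 1.11, 1.13 and 1.04 in KO, a change of 0.33 (SE 0.05, limma adjusted p = 0.00244). CUC was 0.933, 0.902, 0.925 and 0.922 in WT and 1.16, 1.13, 1.02 and 1.08 in KO, a change of 0.25 (SE 0.05, limma adjusted p = 0.00979). Neither of them overlapped between the genotypes. In the whole table, every KO library lay above every WT library for 4 codons (6.56%), which were UUG, CUA, CUU and CUC. CUG was 1.03, 1.10, 0.903 and 0.901 in WT and 1.10, 1.22, 1.01 and 1.03 in KO. Its groups overlapped, and replicates 1 and 2 were higher than replicates 3 and 4 in both genotypes. The change of CUG was 0.15 (SE 0.08, 95% interval -0.04 to 0.34, limma adjusted p = 0.586), and without KO replicate 2 it was 0.09.

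Libraries with the same replicate number deviated together from their group means in monosomes, so the comparison was also made within numbers. Libraries of different numbers were not compared in this way, so whether the number is the right pairing was not tested. With the replicate number as a block, 5 of the 6 Leu codons passed, beside 13.1% of all codons. CUG was then past the threshold (limma adjusted p = 0.0119) and UUA was not (limma adjusted p = 0.0535). The other calls of the blocked fit were 3 codons not for Leu, all lower in KO. They were UGU and UGC for cysteine (limma adjusted p = 0.0119 each) and GCC for alanine (limma adjusted p = 0.0292). An exact two-sided permutation test on each codon, whose smallest possible p is 0.0286 with these libraries, left no Leu codon past the threshold after adjustment. At least 35 of the 61 codons would have had to reach that smallest p for any to pass, so this count says nothing about the limma calls. Its unadjusted p was under 0.05 for 6 codons, 4 of them for Leu.

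**Figure D2:**
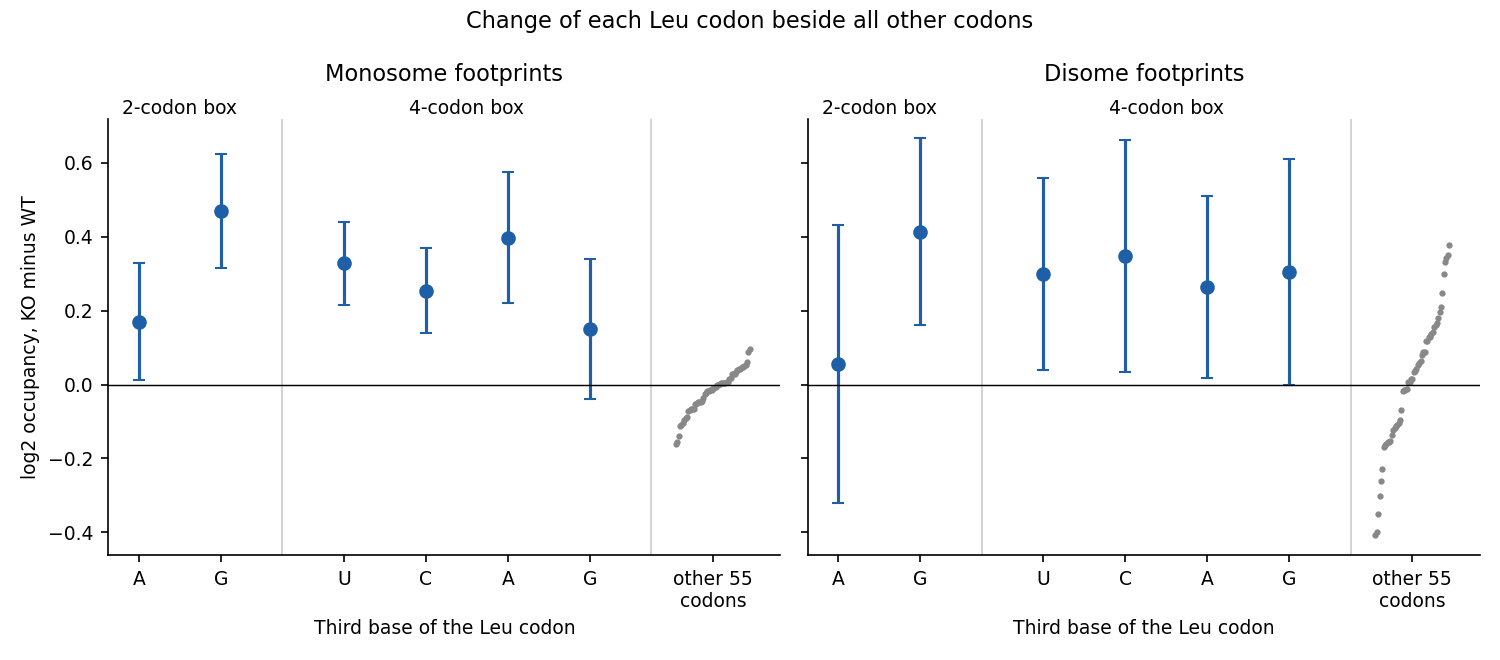
Log2 change in occupancy (KO over WT) of each Leu codon with its 95% interval, by box and the third base, and of the 55 other codons as grey points, for monosomes and disomes. Monosome changes of the Leu codons run from 0.15 for CUG to 0.47 for UUG, and disome intervals are wider.

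Whether codons that differ in the third base alone changed by different amounts was asked by testing ratios between them. Of the 29 pairs of synonymous codons that differ as G against A or C against U, 3 are Leu pairs. In monosomes the ratio of UUG to UUA was higher in KO, and the ratio of CUG to CUA was lower. The G-ending codon thus moved more than its A-ending partner in the 2-codon box and less in the 4-codon box. These differences were the largest 2 of the 29 in size, and in the limma fit as used throughout they passed with the replicate block and not without it.

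The UUG to UUA ratio was 1.16, 1.22, 1.19 and 1.02 in WT replicates 1 to 4 and 1.52, 1.70, 1.26 and 1.21 in KO replicates 1 to 4. KO replicate 4 lay just under WT replicate 2, so the groups overlapped, although within each number KO was higher. The log2 change of the ratio was 0.30 (SE 0.11, 95% interval 0.05 to 0.55, limma adjusted p = 0.340 over 29 ratios). With the replicate block, limma gave an interval of 0.16 to 0.44 and an adjusted p of 0.00976. The differences within numbers 1 to 4 were 0.39, 0.48, 0.08 and 0.25. Because the blocked fit shares spread over the 29 ratios, its interval and p are not those of these scattered differences taken alone.

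The CUG to CUA ratio was 0.806, 0.960, 0.853 and 0.844 in WT and 0.682, 0.779, 0.687 and 0.771 in KO. All 4 KO values lay below all WT values, and this was the single ratio of the 29 whose groups did not overlap (3.45%). The log2 change was -0.25 (SE 0.07, 95% interval -0.41 to -0.08, limma adjusted p = 0.206). With the block, limma gave an interval of -0.35 to -0.14 and an adjusted p of 0.00873, and the differences within numbers 1 to 4 were -0.24, -0.30, -0.31 and -0.13.

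Without the block, 0 of the 29 ratios passed in limma (0%). With a mean-variance trend and a robust prior, 1 of the 29 did (3.45%), CUG to CUA with limma adjusted p = 0.00729. There were 2 ratios at an unadjusted limma p under 0.05, both for Leu, and 1 at an unadjusted exact permutation p under 0.05. With the block, 2 of the 29 passed (6.9%), both for Leu and in opposite directions, and 0 of the 26 other ratios did. With the libraries of number 2 left out of the blocked fit, an alternative chosen after the data were seen, neither ratio passed, with limma adjusted p = 0.146 for UUG to UUA and 0.0912 for CUG to CUA. The 26 other ratios changed by -0.11 to 0.11, with a median size of 0.04. The ratio of GUG to GUA, the valine pair that ends in the same bases, changed by 0.01 (limma adjusted p = 0.991).

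For the codons that share the inosine-bearing isoacceptor, no difference in change was detected. The CUC to CUU ratio was 1.03, 1.02, 1.13 and 1.07 in WT and 1.09, 1.02, 0.901 and 1.04 in KO. Its log2 change was -0.07 (95% interval -0.22 to 0.07, limma adjusted p = 0.957, and 0.683 with the replicate block), and it turned to 0.01 when number 3 was left out of the blocked fit.

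**Figure D3:**
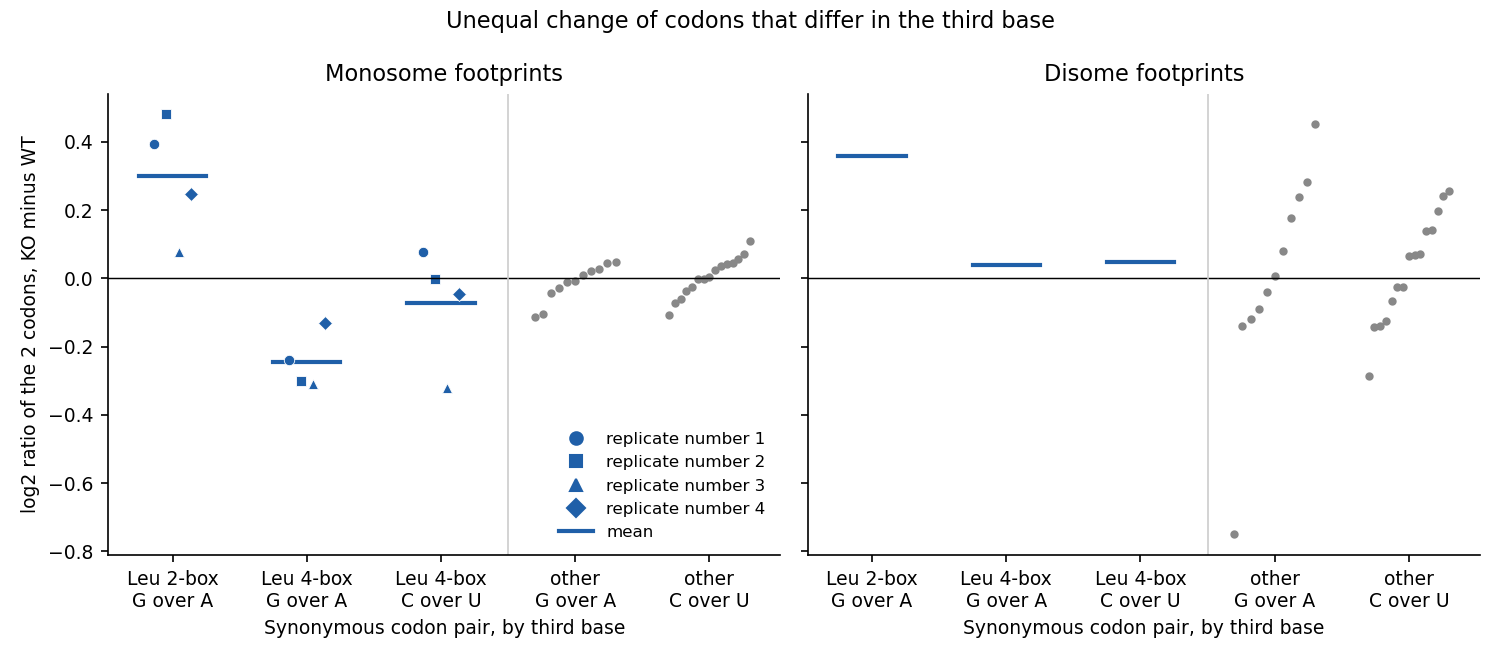
Log2 change (KO over WT) of the ratio between synonymous codons that differ in the third base, with lines for the mean of each Leu ratio, symbols for the differences within replicate numbers in monosomes, and a grey point for each of the 26 other ratios. In monosomes UUG to UUA lies at 0.30 and CUG to CUA at -0.25, outside the -0.11 to 0.11 of the other ratios.

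The boxes as wholes moved by similar amounts in monosomes. Without the block each held a codon that did not pass, and with it all 4 codons of the 4-codon box passed while UUA did not. Box values are means of log2 occupancy over the codons of a box in 1 library, described without a test. In monosomes the 2-codon box was -0.02, -0.03, -0.14 and -0.09 in WT replicates 1 to 4 and 0.29, 0.21, 0.29 and 0.21 in KO replicates 1 to 4. The 4-codon box was 0.04, 0.00, -0.12 and -0.10 in WT and 0.28, 0.32, 0.19 and 0.16 in KO. Neither box overlapped between the genotypes. The change was 0.32 for the 2-codon box and 0.28 for the 4-codon box. The difference of 0.04 between them was smaller than its SD between libraries, 0.0644, and its groups overlapped. It was 0.01 without KO replicate 3 and 0.08 without KO replicate 2. The mean of the 55 codons not for Leu changed by -0.02.

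**Figure D4:**
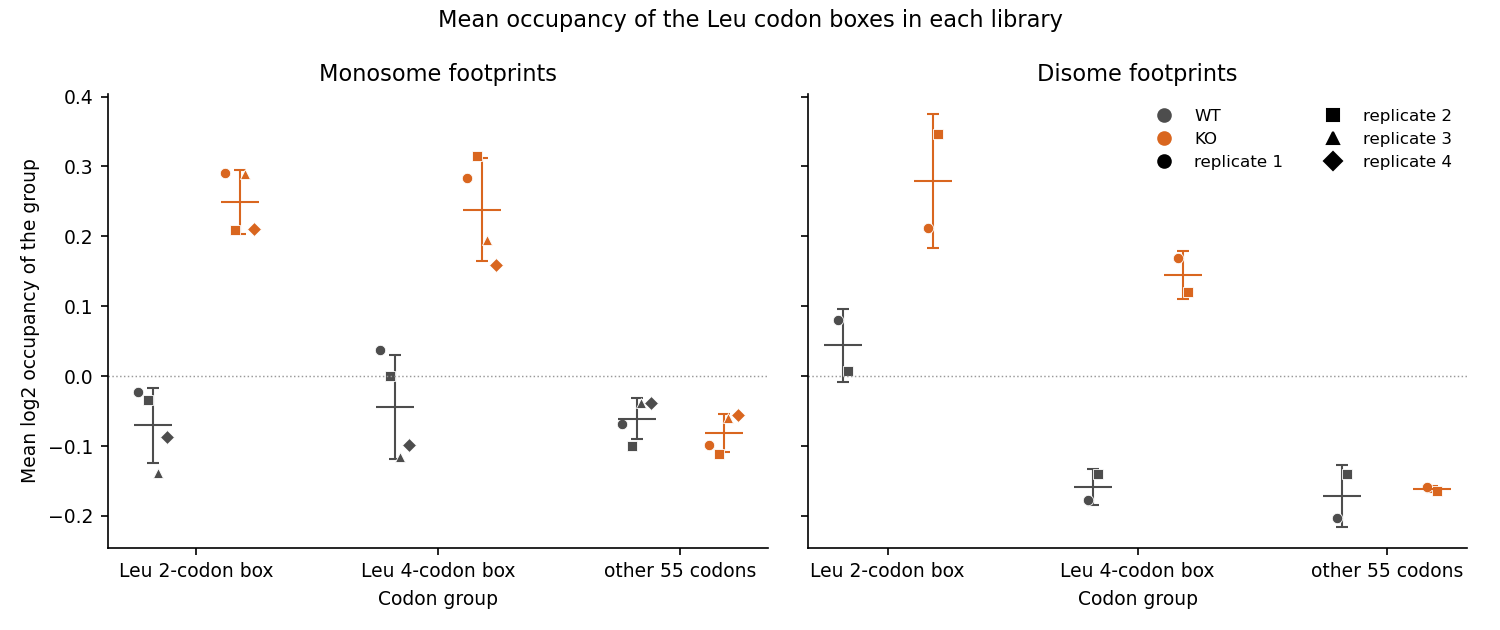
Mean log2 occupancy of the 2-codon box, the 4-codon box and the 55 codons not for Leu in each library, by genotype, for monosomes and disomes, with points for libraries and bars and whiskers for the mean and SD. Both Leu boxes lie higher in all KO libraries than in all WT libraries, by 0.32 and 0.28 on average in monosomes.

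Among all codons, the 6 Leu codons held the top 6 places by monosome increase, from UUG at rank 1 and CUA at rank 2 to CUG at rank 6 of 61. Their median change was 0.29, against -0.00 over all 61 codons, and the 55 other codons ranged from -0.16 to 0.10. In size, the decreases of UGU (-0.160) and UGC (-0.155) were larger than the increase of CUG (0.151). Codons that share U as the middle base with Leu were compared because they pair with the same middle base of the anticodon. Of these 10 codons, which encode phenylalanine (Phe), valine (Val), isoleucine and methionine, 0 passed in limma and 0 had an unadjusted p under 0.05. Their changes ran from -0.11 to 0.05. The Phe codons, whose first base is that of the Leu 2-codon box, changed by -0.11 for UUU and 0.00 for UUC, and the 4 Val codons by -0.07 to 0.00. The 6 Ser codons, whose tRNAs are also acetylated, had changes of 0.02 to 0.06, and 0 of 6 passed in limma, with 0 at an unadjusted p under 0.05.

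The 3 codons with the highest correlation to the mean of the Leu codons in monosomes were for Ser, but not all Ser codons were correlated with it. Over the 8 monosome libraries, log2 occupancy of AGU had a Pearson r of 0.64 (Spearman 0.67) with the mean of the Leu codons, UCC had 0.46 (0.52) and UCG had 0.41 (0.48). The points fall into the WT and KO libraries, so r mixes the genotype difference with the spread inside a genotype. The Ser codons UCA and AGC had r of 0.00 and -0.01. For deviations from the genotype means, r was 0.45 for AGU, 0.80 for UCC and 0.84 for UCG, but -0.42 for UCA and -0.61 for AGC. By that measure codons for other amino acids came as high, such as GAC at 0.94 and UGG at 0.86. These are descriptions over 8 libraries that share a baseline within each library.

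In disomes, 5 of the 6 Leu codons were higher in both KO libraries than in both WT libraries, beside 29.5% of all codons, and none passed limma. UUA was the exception. With 2 libraries per genotype, 0 of the 6 Leu codons and 0% of all codons passed after adjustment, while 4 Leu codons, among 10 codons in all (16.4%), had an unadjusted p under 0.05. The smallest p of the exact permutation test is 0.333 here, so that test could not pass the threshold for any codon.

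In the 2-codon box, UUG was 0.907 and 0.977 in WT disomes and 1.27 and 1.24 in KO disomes, the highest change of the table at 0.41 (SE 0.10, limma adjusted p = 0.236). With a mean-variance trend and a robust prior in limma the adjusted p of UUG was 0.0222, and it was 1 of 4 codons (6.56% of the table) that passed in that setting, the others not for Leu. UUA was 1.23 and 1.03 in WT and 1.06 and 1.30 in KO, and the genotypes overlapped. Its change was 0.06 (SE 0.15, 95% interval -0.32 to 0.43, limma adjusted p = 0.904), at rank 29 of 61, and it turned to -0.04 when each library was centred on its median. UUA was among the higher 3 Leu codons by mean in WT and KO disomes, and had the lowest mean in KO monosomes. The footprint kinds were not tested against each other.

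In the 4-codon box, all 4 codons were higher in both KO disome libraries. CUC was 0.965 and 0.815 in WT and 1.18 and 1.08 in KO, a change of 0.35 (SE 0.13, limma adjusted p = 0.264). CUG was 0.781 and 0.933 in WT and 1.07 and 1.04 in KO, a change of 0.30 (SE 0.12, limma adjusted p = 0.277). The values of CUG did not overlap between the genotypes, as for 29.5% of all codons in that direction. Groups of 2 libraries separate more easily than the groups of 4 in monosomes, so this is no contrast between footprint kinds. Single libraries moved both codons, CUG to 0.18 without WT replicate 1 and CUC to 0.23 without WT replicate 2. CUU was 0.756 and 0.817 in WT and 0.998 and 0.936 in KO, a change of 0.30 (SE 0.11, limma adjusted p = 0.264). CUA was 1.07 and 1.09 in WT and 1.26 and 1.34 in KO, a change of 0.26 (SE 0.10, limma adjusted p = 0.264). CUU had the lowest mean of the Leu codons in both genotypes, and CUA the highest in KO, at 1.30 ± 0.0505 (SD, n = 2).

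The Leu third-base ratios were not resolved in disomes. None of the 29 ratios passed in limma without a block (0%), 2 had an unadjusted p under 0.05 and neither was for Leu. With the replicate block 1 of the 29 passed, the Ser ratio of UCG to UCA (change -0.75, limma adjusted p = 0.00917), and 0 Leu ratios did. That blocked fit gave every ratio the same SE, 0.184. The UUG to UUA ratio was 0.735 and 0.946 in WT and 1.20 and 0.950 in KO, so that KO replicate 2 and WT replicate 2 nearly met. Its groups did not overlap, as for 34.5% of the ratios, and its log2 change was 0.36 (95% interval -0.14 to 0.85, limma adjusted p = 0.849). Without WT replicate 1 it was 0.18, and without WT replicate 2 it was 0.54. The CUG to CUA ratio was 0.728 and 0.856 in WT and 0.847 and 0.778 in KO, a change of 0.04 (95% interval -0.34 to 0.42, limma adjusted p = 0.914). The CUC to CUU ratio changed by 0.05 (95% interval -0.38 to 0.47, limma adjusted p = 0.914). The interval of CUG to CUA includes the monosome change of -0.25, and the sign of both 4-codon ratios turned when single libraries were left out, to -0.08 for CUG to CUA without WT replicate 1 and to -0.13 for CUC to CUU without WT replicate 2.

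The disome box means did not separate the boxes either. The 2-codon box was 0.08 and 0.01 in WT and 0.21 and 0.35 in KO. The 4-codon box was -0.18 and -0.14 in WT and 0.17 and 0.12 in KO. Both boxes were higher in KO, by 0.24 and 0.30. The difference of -0.07 between the boxes was smaller than its SD between libraries, 0.107, and was 0.02 without KO replicate 1. The median change of the Leu codons was 0.30, against 0.04 over all codons. Of the 10 other codons with U in the middle, 0 passed in limma and 0 had an unadjusted p under 0.05, with changes of -0.10 to 0.20. The 6 Ser codons did not all differ in the same direction. In 4 of them both KO libraries lay above both WT libraries, beside the 29.5% of all codons, and in UCG both lay below. Their median change was 0.23, 0 of 6 passed in limma and 1, UCA, had an unadjusted p under 0.05. AGC at 0.38, UCA at 0.34 and UCU at 0.30 ranked 2, 5 and 9 of 61, among the Leu codons, and UCG at -0.41 ranked 61.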

How the data were processed

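Monosome and disome footprints were sequenced from WT and THUMPD1 KO cells. After trimming of adapters and random bases, the authors discarded noncoding RNA, mapped uniquely with STAR to canonical transcripts of hg19 (build per the labels), and computed occupancy with custom scripts. The deposited values are a linear ratio per codon and library. Its denominator, the read offset and any coverage minimum are not given in the sources used here. Depth is unknown, so precision rests on the spread between libraries, which limma shares in part over all codons or ratios of a fit. Library means were 0.981 to 1.00 in monosomes and 0.949 to 0.962 in disomes, and no value was 0.

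Groups and replicate numbers came from the labels. Each table was fitted separately on log2 values with limma 3.58.1 in R 4.3.3, without a block, over 61 codons or 29 third-base ratios (differences of log2 values), with Benjamini-Hochberg adjustment and a threshold of 0.05. The fit without a block was tested on simulated data with independent noise in each library. That simulation lacked the shared deviations of same-numbered monosome libraries, and the blocked fit was not simulated. In monosomes, same-numbered libraries gave correlations of deviations from group means of 0.534 to 0.872, all over 0.1, and the numbers were taken as pairs. In disomes the value was 0.0212. No correlation was computed between libraries of different numbers, so pairs by number cannot be told apart from a batch that several numbers share. The mean log2 occupancy of the codons not for Leu was -0.0680, -0.0998, -0.0379 and -0.0378 in WT replicates 1 to 4. In KO it was -0.0978, -0.111, -0.0601 and -0.0555, so replicates 1 and 2 were lower in both genotypes. The 2-codon box in KO did not split in this way, and a shared batch was not tested. Named were the Leu codons and ratios, comparator groups by range, and the 3 codons not for Leu with the highest r to the Leu mean. Alternatives were centring (median, or non-Leu mean), equal spread, a pseudocount of 0.1, dropping the lowest 25% of codons (45 kept, with all 6 Leu codons), base content correction, trend and robust prior, exact permutation, the replicate block, and leaving out libraries. Members and lists were chosen with earlier results of these data known.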

Additional observations from a re-analysis of the deposited data

How the results depend on the processing

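In monosomes, all 132 single-codon values under alternatives were above 0, and in disomes 81 of 84 were. The filter on low values, the trend and robust prior, the permutation test and the replicate block leave a codon's change as it was. The sign could therefore not turn in those settings, and the other alternatives reuse the same libraries. The monosome count of 4 Leu codons called was 0 with the exact permutation test, which could pass none here unless 35 codons reached its smallest p, and was 3 to 4 with a library left out (3 without WT replicate 4). With the replicate numbers as pairs, the replicate block called 5 Leu codons among 8 in all and, with base content corrected, 6 among 8, and it called 2 Leu third-base ratios, as it did with base content corrected and, in fits chosen after seeing the data, with the libraries of number 1, 3 or 4 left out. It called 0 with number 2 left out, and limma with a trend and robust prior called 1 without a block, CUG to CUA. The blocked fits share spread over all ratios and reuse libraries, so repeated calls do not show how steady a ratio's own differences are. The monosome CUC to CUU change turned to 0.0092 in the blocked fit without number 3. In disomes, limma with a trend and robust prior called 1 Leu codon, UUG, among 4 codons in all. The replicate block called 0 Leu codons and 0 Leu ratios there, and 1 ratio for Ser. The disome UUA change turned to -0.0381 with median centring, -0.0712 without WT replicate 2 and -0.0955 without KO replicate 2. The disome CUG to CUA change turned to -0.0174 with equal spread, -0.0763 without WT replicate 1 and -0.0208 without KO replicate 1, and CUC to CUU to -0.129 without WT replicate 2. With a library left out, these ratios ranged from -0.0763 to 0.156 and from -0.129 to 0.226. The disome change of the 2-codon box was 0.141 and that of the 4-codon box 0.209 with median centring, and that of the 4-codon box was 0.248 with equal spread. With a library left out, these were 0.168 to 0.303 and 0.280 to 0.328, and their difference was -0.161 to 0.0231. The causes were not tested. A disome fit without a library assumes that the lone library of its arm varies like the other arm. The filter on low values was not run for ratios.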
